A study of Homo sapiens with 18 samples.

Results

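The proteasome is the large protease that degrades proteins tagged with ubiquitin. Its genes were followed across C32 and A375M2 human melanoma cells that carried shRNAs against FHL2 or NFYA, a PMEL vector or a GFP control vector. The members were all genes with one current symbol that starts with PSMA, PSMB, PSMC, PSMD, PSME, PSMF or PSMG followed by a digit. The rule found 45 of the 11232 genes that had a probe set of their own. Of these, 41 encode proteasome subunits, activators, assembly factors or an inhibitor and are called proteasome genes below. The other 4 match by name only: the antisense RNAs PSMA3-AS1 and PSMB8-AS1, the recombination factor PSMC3IP and PSME3IP1. All 45 passed the filter of log2 4 in at least 3 of 18 arrays (PSMB8-AS1 in 4 arrays). PSMA6 and PSME2 were present only on probe sets that name several genes and were left out, and members on no probe set of the table were not analysed here.

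The barrel-shaped 20S core is built of alpha rings that gate entry (PSMA genes) and beta rings (PSMB genes) that hold the proteolytic sites. PSMB6, PSMB7 and PSMB5 carry those sites in the constitutive core, and interferon-inducible PSMB9, PSMB10 and PSMB8 take their places in the immunoproteasome, which favours peptides that fit MHC class I. The 19S cap unfolds substrates with the PSMC ATPases and binds or removes ubiquitin with PSMD subunits, PSME proteins are alternative caps, and PSMG proteins with PSMD5, PSMD9 and PSMD10 are chaperones of assembly. Core and cap genes are commonly induced together by the transcription factor NRF1 (gene NFE2L1) when proteasome activity falls short.

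In the C32 line the arms were FHL2 shRNA (shFHL2) and GFP. In A375M2, a metastatic derivative of A375 that the labels also list under the parental name, they were shFHL2, NFYA shRNA (shNFYA), full-length PMEL and GFP. Each arm had 3 arrays of total RNA, all vectors were lentiviral, and the FHL2 hairpins were a pool of 3 constructs, so that no single hairpin can be judged. PMEL was driven by a CMV promoter with eGFP from the same transcript. The sources describe antibiotic selection and sorting of the brightest GFP-positive cells, so each arm is a selected population, and the GFP vector of the control arrays is not specified among those described. FHL2 is a LIM-domain scaffold protein, PMEL builds melanosome fibrils, and NFYA is the DNA-binding subunit of the CCAAT-box factor NF-Y. The values are log2 probe signals, so a difference of 1 is a doubling, and they compare arrays for a gene but not genes with each other. p-values rest on the spread between arrays, which was described as 3 separate experiments for A375M2 with GFP, PMEL and shFHL2 only.

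FHL2 averaged 5.83 in C32 shFHL2 and 11.08 in C32 GFP, and 7.17 in A375M2 shFHL2 and 11.21 in A375M2 GFP. NFYA averaged 7.52 in shNFYA, 8.86 in shFHL2 and 9.59 in GFP, and PMEL averaged 8.95 in the PMEL arm and 5.57 in GFP. Some arrays were not independent. In C32 GFP the values of replicate 3 coincided with the average of the other replicates (SD of the difference 0.00746 over 16823 probe sets, against 0.108 to 0.171 for other arrays), and that array was left out of everything below, so C32 GFP has 2 arrays. Replicate 3 of A375M2 GFP and of A375M2 PMEL moved in opposite directions, with a correlation of -0.998 between their deviations, so counts that use them are also given without both. By exactly equal values the arrays formed sets. Any 2 of the A375M2 shRNA arrays had 306 or more equal probe sets, and C32 arrays had 380 or more. Between A375M2 shRNA arrays and C32 arrays 38 to 50 were equal, so these were linked to a smaller extent. Between A375M2 shRNA arrays and A375M2 GFP or PMEL arrays 0 were equal. The comparisons of A375M2 shFHL2 or shNFYA with GFP therefore cross array sets, and set and vector cannot be told apart there. C32 GFP replicates 1 and 2 also had 0 equal values with any A375M2 GFP array, so set and line cannot be told apart between the GFP arms. This does not hold for shFHL2 against shNFYA, C32 shFHL2 against GFP, or PMEL against GFP, where replicate 3 of both arms formed a set of its own.

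Melanocyte markers, 9 of 10 listed being measured, averaged 9.70 to 9.72 in C32 shFHL2 and 11.45 to 11.52 in C32 GFP. In A375M2 they averaged 6.38 to 6.43 in shFHL2, 5.94 to 6.12 in shNFYA, 9.33 to 9.41 in PMEL and 8.89 to 8.94 in GFP. SOX10 was present in every arm, whereas MLANA was at 2.38 in A375M2 GFP, near the lowest signals of the table. Leukocyte markers, 3 of 6 measured, averaged 8.10 to 8.60 in C32 shFHL2 and 7.50 to 8.21 in C32 GFP, and 8.16 to 8.24 in A375M2 shFHL2, 7.90 to 7.96 in shNFYA and 6.31 to 6.42 in GFP. Of these, LYZ averaged 9.45 in A375M2 shFHL2, 9.40 in shNFYA and 3.74 in GFP, and 5.69 in C32 shFHL2 and 3.70 in C32 GFP. PTPRC, which marks all leukocytes, averaged 7.80 in C32 shFHL2 and 8.63 in C32 GFP and was near the lowest signals in A375M2, while CD74 was above log2 11 in every arm. Fibroblast markers, 5 of 7 measured, averaged 7.12 to 7.24 in C32 shFHL2 and 7.055 to 7.205 in C32 GFP, and 5.51 to 5.56 in A375M2 shFHL2, 5.37 to 5.50 in shNFYA and 7.55 to 7.58 in GFP. KDR, the 1 endothelial marker of 4 measured, averaged 7.83 in C32 shFHL2 and 10.18 in C32 GFP, and 7.58 in A375M2 shFHL2, 5.86 in shNFYA and 6.83 in GFP. The 4 epithelial markers measured averaged 6.53 to 6.64 in A375M2 shFHL2, 6.82 to 7.11 in shNFYA and 5.55 to 5.66 in GFP. In A375M2 PMEL the fibroblast markers averaged 6.73 to 6.78 and KDR 5.41 to 5.69, both below GFP. The leukocyte markers averaged 6.17 to 6.31 there and the epithelial markers 5.52 to 5.74. The part of these shifts in the results below was not tested, and fewer cells of a type and less RNA per cell cannot be told apart.

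C32 cells with FHL2 shRNA gave higher signals for most of the proteasome genes measured. A gene was called higher or lower at an adjusted p under 0.05 (limma, Benjamini-Hochberg over 10940 genes), and 35 of the 41 proteasome genes were called higher (85.4%), against 32.2% of all genes tested. Only 3 were called lower (7.32%), against 30.3% of all genes. The median log2 difference of the 41 genes was 0.34, against 0.00 over all genes, and none of them reached 2-fold. All 6 alpha genes, 3 of 4 structural beta genes, all 3 constitutive catalytic genes, all 5 19S ATPases and all 9 other 19S genes were called higher, as were 5 of 7 assembly factors. The class medians were 0.46 for alpha, 0.43 for structural beta, 0.52 for constitutive catalytic, 0.41 for ATPase, 0.34 for non-ATPase and 0.21 for assembly genes.

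**Figure D1:**
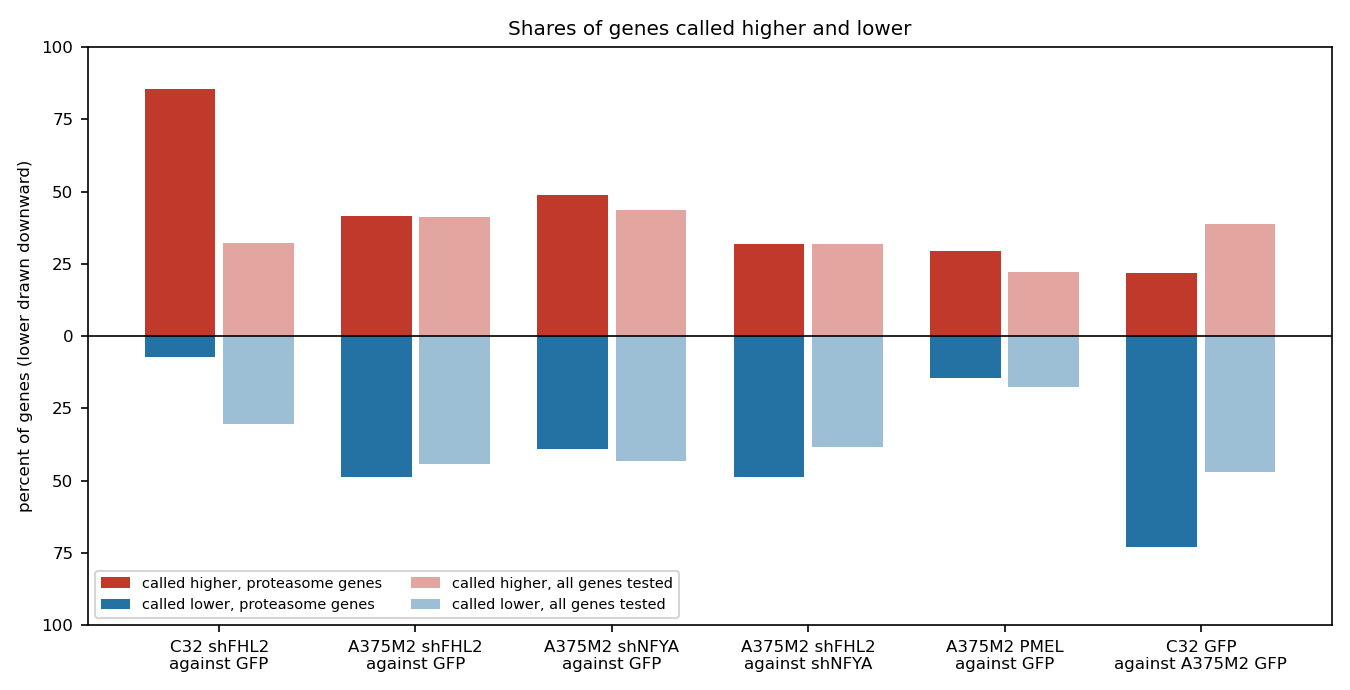
Percent of genes called higher (red, upward) and lower (blue, drawn downward) in each comparison, with the 41 proteasome genes in full colour and all 10940 genes tested in pale colour. In C32 shFHL2 against GFP 85.4% of the proteasome genes were called higher, against 32.2% of all genes, whereas in A375M2 shFHL2 against GFP the 41.5% called higher sat beside 41.1% of all genes.

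The largest rises were in the core. PSMB7, the trypsin-like subunit, measured 14.38, 14.43 and 14.30 in C32 shFHL2, against 13.58 and 13.67 in C32 GFP. PSMB8, the immunoproteasome counterpart of PSMB5, measured 11.35, 11.35 and 11.32 in C32 shFHL2, against 10.64 and 10.56 in C32 GFP. For PSMB2, a structural beta subunit, the arrays gave 12.81, 12.73 and 12.83 in C32 shFHL2, against 12.10 and 12.15 in C32 GFP. In each of these genes every shFHL2 array lay above every GFP array, with differences of 0.74 ± 0.04 (SE), 0.73 ± 0.04 and 0.67 ± 0.04, or 1.67-, 1.66- and 1.59-fold. The adjusted p-values of limma were 1.41e-10, 1.19e-10 and 1.04e-10. The other probe sets of PSMB2 gave 0.03 and 0.49, so the size of its rise depends on the probe set.

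PSMB9 went the other way. This immunoproteasome subunit, which cleaves after hydrophobic residues, measured 6.05, 5.75 and 6.01 in C32 shFHL2, against 6.82 and 6.99 in C32 GFP, a difference of -0.97 ± 0.11 (adjusted p = 5.98e-07, limma), and the groups did not overlap. PSMB6, the caspase-like subunit whose place it takes, measured 12.89, 12.995 and 12.94 in C32 shFHL2, against 12.45 and 12.39 in C32 GFP, and rose by 0.52 ± 0.04. PSMB9 and PSMB8 lie beside each other in the MHC class II region, with the peptide transporter genes TAP1 and TAP2 and the antisense RNA PSMB8-AS1. TAP1 was lower by 0.28 and called, while TAP2 (-0.13) did not pass. PSMB8-AS1 lay below log2 4 in every C32 array, so nothing can be read from it there.

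PSMB10, the immunoproteasome counterpart of PSMB7, measured 8.44, 8.51 and 8.51 in C32 shFHL2, against 8.24 and 8.22 in C32 GFP, a rise of 0.25. PSMB5, the chymotrypsin-like subunit and target of bortezomib, measured 11.93, 11.91 and 11.93 in C32 shFHL2, against 11.68 and 11.78 in C32 GFP, a rise of 0.19. In both genes all shFHL2 arrays stood above both GFP arrays. Among the activators, PSME1, a subunit of the interferon-inducible 11S cap, measured 11.06, 11.09 and 11.05 in C32 shFHL2, against 10.86 and 10.94 in C32 GFP, and PSME3, the nuclear 11S cap, measured 9.77, 9.74 and 9.75 in C32 shFHL2, against 9.53 and 9.56 in C32 GFP. Both were called higher, by 0.17 and 0.21, but the call of PSME1 was lost without C32 GFP replicate 1 (adjusted p = 0.0932, limma), and PSME3 was at 0.05 or below on its 3 other probe sets (0.05, 0.02 and -0.30).

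The other genes called lower were PSME4 and PSMF1. PSME4, the large single-chain activator PA200, measured 9.61, 9.70 and 9.60 in C32 shFHL2, against 9.85 and 9.87 in C32 GFP, a difference of -0.22, yet a second probe set of the gene gave 1.11 and another -0.02. PSMF1, the inhibitor PI31, measured 10.20, 10.23 and 10.32 in C32 shFHL2, against 10.49 and 10.42 in C32 GFP, a difference of -0.20 ± 0.07 that lost its call without C32 GFP replicate 1 (adjusted p = 0.126, limma) or without shFHL2 replicate 1 (0.0648). Not called were the structural subunit PSMB4 (-0.01) and the assembly factors PSMD5 (0.06) and PSMG1 (0.10). The remaining rises ran from 0.13 in PSMD9 to 0.65 in PSMA2.

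Control probes also differed between the C32 arms. The poly-A spike-in probe sets averaged 5.61 ± 0.05 in C32 shFHL2 (SD, n = 3) and 9.06 ± 0.30 in C32 GFP (SD, n = 2), the hybridisation spike-ins 11.46 ± 0.06 in shFHL2 and 12.44 ± 0.12 in GFP, and the 18S rRNA probe sets 13.94 ± 0.10 in shFHL2 and 13.28 ± 0.13 in GFP. The 3′ minus 5′ signal of actin, a sign of RNA integrity and labelling, averaged 0.87 ± 0.04 in shFHL2 and 1.08 ± 0.02 in GFP. The part of these control probes in the rise of the proteasome genes was not tested. With each array centred on its median, or with quantile normalization, 38 of the 41 genes were called, as many as above. They were not all the same genes, since PSMF1 lost its call with centring (adjusted p = 0.0702, limma). These settings rescale values that were already normalized, so they cannot decide the part of the control probes.

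**Figure D2:**
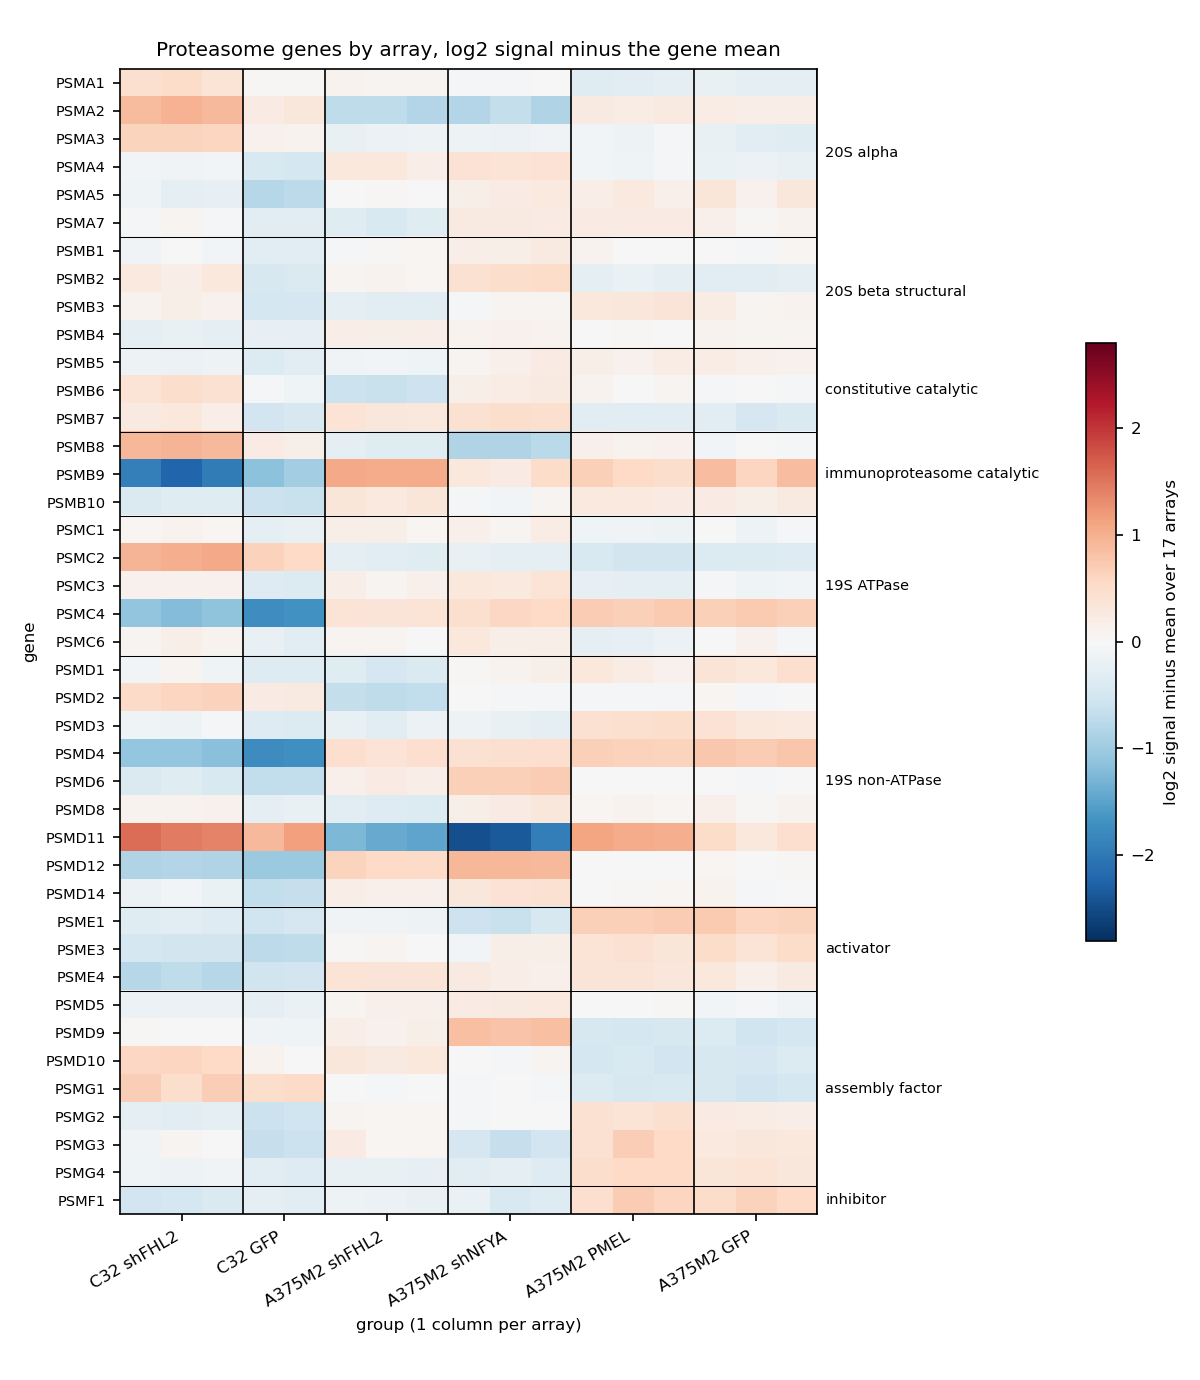
Log2 signal of the 41 proteasome genes (rows, by class) in 17 arrays (columns), minus the mean of each gene over these arrays. In C32 the shFHL2 columns are redder than the GFP columns in most rows except PSMB9, PSME4 and PSMF1, and PSMD11 is darkest blue in A375M2 shNFYA.

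In A375M2 the proteasome genes differed between shFHL2 and GFP in both directions, and vector and array set cannot be told apart here. Called higher were 17 of the 41 (41.5%), against 41.1% of all genes tested, and called lower were 20 (48.8%), against 44.3%, shares near those of all genes. The median difference was 0.00, against -0.04 over all genes, and the median size of a difference was 0.32, against 0.62 over all genes. The 37 calls were also 37 without replicate 3 of A375M2 GFP and PMEL, where 83.2% of all genes were called. Most 19S non-ATPase genes were lower (6 of 9, median -0.45), the alpha genes split evenly into 3 higher and 3 lower, and assembly factors split into 4 higher and 3 lower. Control probes differed between the A375M2 arms as well: the 18S rRNA probe sets averaged 14.18 ± 0.07 in shFHL2, 14.19 ± 0.11 in shNFYA, 11.08 ± 0.02 in PMEL and 12.52 ± 0.03 in GFP (SD, n = 3 each). The 3′ minus 5′ signal of actin, a sign of RNA integrity and labelling, averaged 1.07 ± 0.08 in shFHL2, 1.19 ± 0.08 in shNFYA, 0.74 ± 0.08 in PMEL and 0.61 ± 0.13 in GFP. Their part in the A375M2 differences was not tested.

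PSMD11, a scaffold subunit of the 19S lid, measured 5.53, 5.37 and 5.31 in A375M2 shFHL2, against 7.29, 7.08 and 7.25 in A375M2 GFP. The groups lay far apart, with a difference of -1.80 ± 0.12 or 3.49-fold lower (adjusted p = 1.26e-10, limma), and no other proteasome gene fell 2-fold here. PSMA2, an alpha-ring subunit, measured 8.57, 8.57 and 8.45 in A375M2 shFHL2, against 9.48, 9.47 and 9.46 in A375M2 GFP, and fell by 0.94. PSMD1, the largest subunit of the 19S base, measured 10.33, 10.19 and 10.24 in A375M2 shFHL2, against 11.02, 10.96 and 11.12 in A375M2 GFP, and fell by 0.78. Neither pair of groups overlapped.

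The largest rises were headed by PSMB7, with 14.50, 14.43 and 14.42 in A375M2 shFHL2, against 13.81, 13.66 and 13.71 in A375M2 GFP, a difference of 0.72 ± 0.04. The assembly chaperones PSMD10, also known as gankyrin, and PSMD9 followed. PSMD10 measured 12.41, 12.36 and 12.39 in A375M2 shFHL2, against 11.66, 11.63 and 11.72 in A375M2 GFP, and PSMD9 measured 11.14, 11.07 and 11.13 in A375M2 shFHL2, against 10.58, 10.41 and 10.47 in A375M2 GFP. They rose by 0.72 and 0.63, and all shFHL2 arrays of these 3 genes lay above all GFP arrays.

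The other catalytic genes did not move as a class. PSMB6 measured 11.91, 11.89 and 11.92 in A375M2 shFHL2, against 12.46, 12.50 and 12.46 in A375M2 GFP, and fell by 0.57. PSMB5 measured 11.97, 11.997 and 11.96 in A375M2 shFHL2, against 12.28, 12.21 and 12.19 in A375M2 GFP, and fell by 0.25. PSMB8 measured 10.14, 10.06 and 10.06 in A375M2 shFHL2, against 10.32, 10.40 and 10.37 in A375M2 GFP, and fell by 0.28. PSMB9 measured 9.04, 9.01 and 8.999 in A375M2 shFHL2, against 8.84, 8.56 and 8.83 in A375M2 GFP, a rise of 0.27 (adjusted p = 0.0167, limma) that dropped to 0.18 (adjusted p = 0.109) without A375M2 GFP replicate 2. PSMB10 measured 9.18, 9.12 and 9.17 in A375M2 shFHL2, against 9.07, 9.01 and 9.09 in A375M2 GFP, and its difference of 0.10 did not pass.

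PSME1 measured 11.31, 11.30 and 11.25 in A375M2 shFHL2, against 12.14, 11.998 and 12.03 in A375M2 GFP, and PSME3 measured 10.28, 10.33 and 10.25 in A375M2 shFHL2, against 10.78, 10.65 and 10.78 in A375M2 GFP. Both activators fell, by 0.77 and 0.45, and the 4 probe sets of PSME3 ran from -2.29 to -0.45. PSMF1 measured 10.58, 10.57 and 10.53 in A375M2 shFHL2, against 11.23, 11.37 and 11.29 in A375M2 GFP, and fell by 0.74. PSME4 measured 10.78, 10.76 and 10.76 in A375M2 shFHL2, against 10.70, 10.55 and 10.66 in A375M2 GFP, a rise of 0.13 that lost its call without A375M2 GFP replicate 2 (adjusted p = 0.0639, limma). Its other probe sets gave 1.91 and -1.30, so its direction is uncertain.

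**Figure D3:**
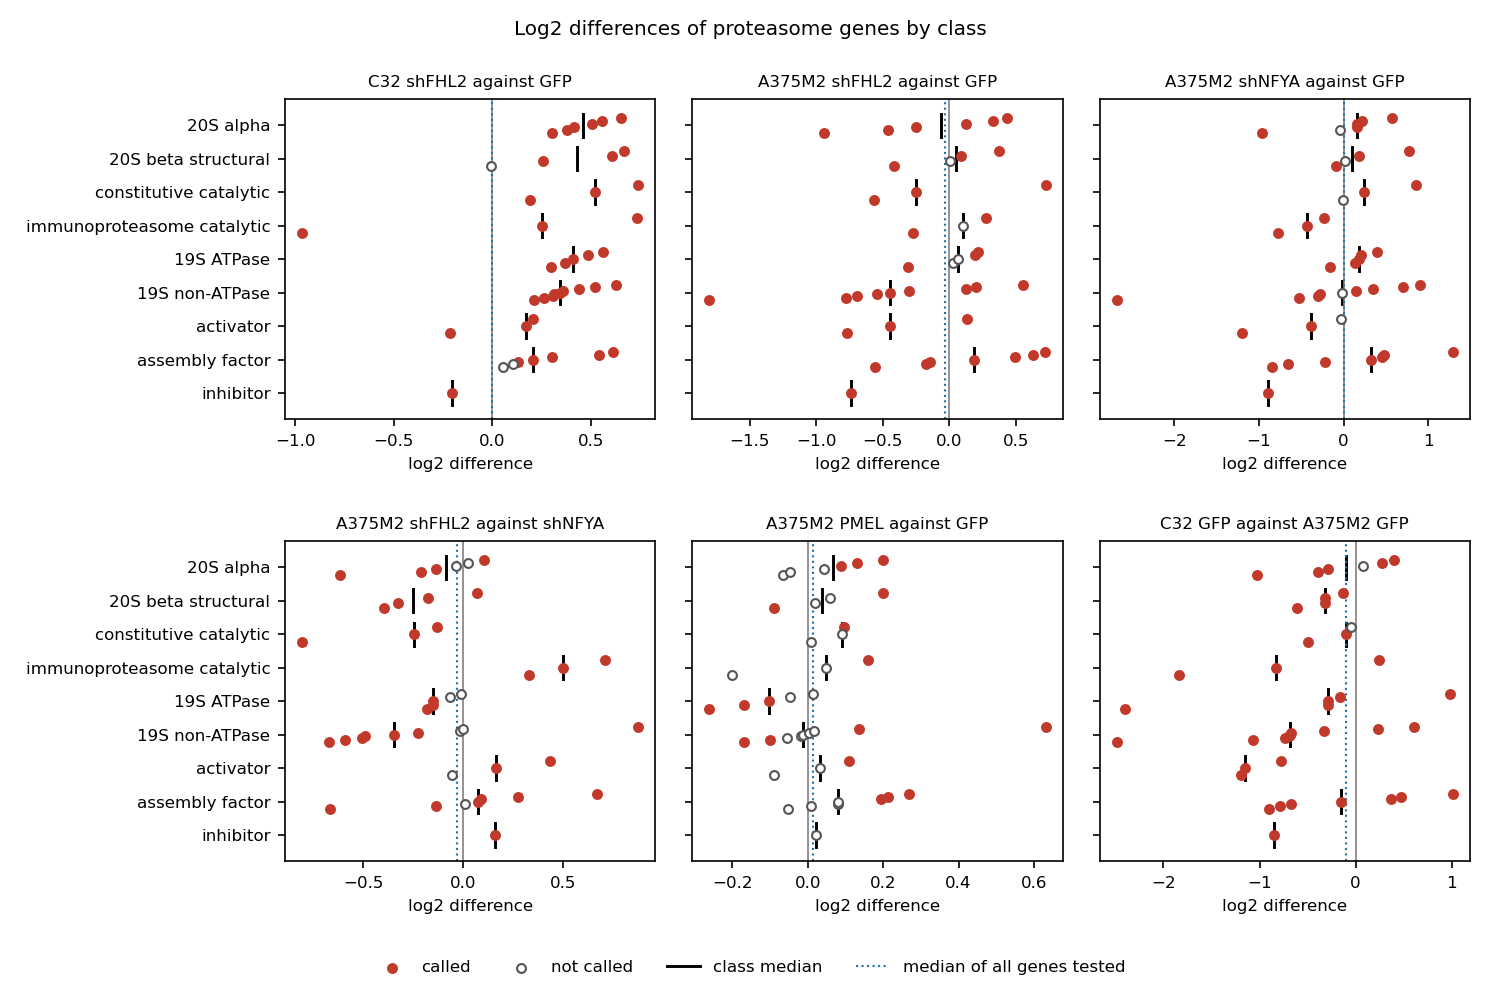
Log2 differences of the proteasome genes (x axis) by class (y axis) in 6 comparisons, with filled points for genes called at an adjusted p under 0.05, open points for the others, a black bar for the class median and a dotted line for the median of all genes tested. In C32 shFHL2 against GFP every 20S alpha and 19S point lies right of 0, and in A375M2 shFHL2 against shNFYA the 3 immunoproteasome points lie right of 0 and the 3 constitutive catalytic points left of it.

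The difference between shFHL2 and GFP was unlike between the lines. Its A375M2 part crosses array sets and its C32 part does not, so line and set cannot be told apart here. The interaction, the C32 difference between shFHL2 and GFP minus the A375M2 one, was called positive for 28 proteasome genes (68.3%), against 42.1% of all genes, and negative for 8 (19.5%), against 38.1%. Its median over the 41 genes was 0.40, against 0.06 over all genes. Without replicate 3 of A375M2 GFP and PMEL 34 of the 36 calls were made, where 78.4% of all genes were called. Of the 35 genes called higher in C32, 12 were also called higher in A375M2, 19 were called lower there and 4 were not called. Of all genes tested, 41.1% were called higher and 44.3% lower in A375M2 shFHL2 against GFP. PSMF1 was the 1 gene called lower in both lines.

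The interaction was 2.24 ± 0.18 for PSMD11, whose difference was 0.44 in C32 with 8.36, 8.24 and 8.17 in shFHL2, against 7.69 and 7.94 in GFP. For PSMA2 it was 1.59 ± 0.08, with 10.17, 10.25 and 10.19 in C32 shFHL2, against 9.51 and 9.59 in C32 GFP. For PSMD1 it was 1.09 ± 0.09, with 10.57, 10.74 and 10.53 in C32 shFHL2, against 10.29 and 10.30 in C32 GFP. These 3 genes rose in C32 and fell in A375M2, without overlap of arrays in either line. PSMB9 had the most negative interaction, -1.24 ± 0.15, being lower with the shRNA in C32 and higher in A375M2. PSMD9 (-0.50) rose more in A375M2 than in C32, and PSMG1 (-0.39), an assembly chaperone of the core, rose in A375M2, with 11.57, 11.51 and 11.57 in shFHL2, against 11.11, 11.01 and 11.07 in GFP, and did not pass in C32, with 12.25, 12.05 and 12.25 in shFHL2, against 12.07 and 12.09 in GFP. PSMB7 rose in both lines, with an interaction of 0.02 ± 0.06 that did not pass (adjusted p = 0.782, limma).

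**Figure D4:**
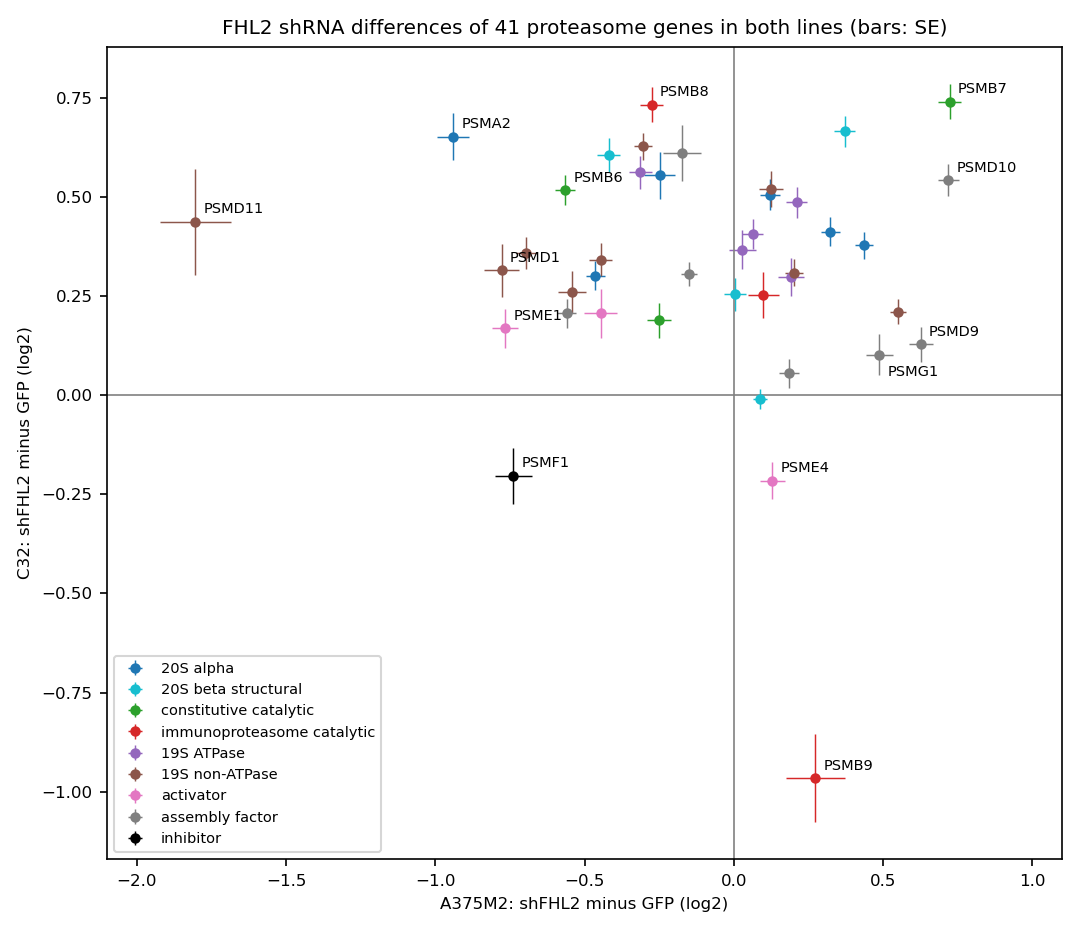
Difference between shFHL2 and GFP in C32 (y axis, log2) against the same difference in A375M2 (x axis, log2) for 41 proteasome genes, coloured by class, with SE bars. Most points lie above 0 on the y axis but on both sides of 0 on the x axis, PSMB9 lies alone at -0.97 on the y axis, and PSMD11 at -1.80 on the x axis.

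In A375M2 shNFYA against GFP, which also crosses array sets, 20 proteasome genes were called higher (48.8%), against 43.5% of all genes. Called lower were 16 (39%), against 43.3%. These shares were near those of all genes, and the median difference of 0.02 was close to the 0.00 of all genes. There were also 36 calls without replicate 3 of A375M2 GFP and PMEL, where 84.7% of all genes were called. This comparison shares its GFP arrays with that of shFHL2. By class, 4 of 6 alpha genes and 4 of 5 ATPases were higher, while all 3 immunoproteasome catalytic genes and 2 of 3 activators were lower.

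PSMD11 measured 4.32, 4.43 and 4.85 in A375M2 shNFYA, against 7.29, 7.08 and 7.25 in A375M2 GFP, a difference of -2.68 ± 0.12 or 6.40-fold lower. The shNFYA arrays were close to the filter level of log2 4, and no array of the 2 groups overlapped. PSME1 measured 10.83, 10.78 and 10.95 in A375M2 shNFYA, against 12.14, 11.998 and 12.03 in A375M2 GFP, 2.30-fold lower, and PSMA2 measured 8.47, 8.62 and 8.43 in A375M2 shNFYA, against 9.48, 9.47 and 9.46 in A375M2 GFP, 1.95-fold lower. The largest rise was PSMD9, an assembly chaperone of the 19S base, with 11.79, 11.76 and 11.79 in A375M2 shNFYA, against 10.58, 10.41 and 10.47 in A375M2 GFP, 2.45-fold higher. PSMB7 measured 14.56, 14.62 and 14.57 in A375M2 shNFYA, against 13.81, 13.66 and 13.71 in A375M2 GFP, 1.81-fold higher. PSMD12, a lid subunit, measured 12.75, 12.75 and 12.72 in A375M2 shNFYA, against 11.86, 11.83 and 11.84 in A375M2 GFP, a difference of 0.90, but its second probe set gave -0.15, so its direction is uncertain.

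The immunoproteasome genes fell together in the shNFYA arm. PSMB8 measured 9.57, 9.56 and 9.64 in A375M2 shNFYA, against 10.32, 10.40 and 10.37 in A375M2 GFP. PSMB9 measured 8.26, 8.19 and 8.48 in A375M2 shNFYA, against 8.84, 8.56 and 8.83 in A375M2 GFP, and PSMB10 measured 8.79, 8.78 and 8.92 in A375M2 shNFYA, against 9.07, 9.01 and 9.09 in A375M2 GFP. None of the 3 pairs overlapped, and the differences were -0.77 ± 0.04, -0.43 ± 0.10 and -0.23 ± 0.05 (adjusted p = 1.87e-12, 0.000554 and 0.000508, limma). Of their constitutive counterparts, PSMB6 measured 12.68, 12.71 and 12.76 in A375M2 shNFYA, against 12.46, 12.50 and 12.46 in A375M2 GFP, and rose by 0.24. PSMB5, with 12.15, 12.21 and 12.30 in A375M2 shNFYA, against 12.28, 12.21 and 12.19 in A375M2 GFP, differed by -0.01 ± 0.04, which did not pass.

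The arms shFHL2 and shNFYA of A375M2 belong to the same array set. Set against each other, 13 proteasome genes were called higher in shFHL2 (31.7%), against 31.8% of all genes, and 20 lower (48.8%), against 38.3% of all genes. Without replicate 3 of A375M2 GFP and PMEL 33 were called, as with them, where 69.2% of all genes were called. The catalytic genes separated by type: all 3 immunoproteasome genes were higher in shFHL2, by 0.71 ± 0.10 for PSMB9, 0.50 ± 0.04 for PSMB8 and 0.33 ± 0.05 for PSMB10. All 3 constitutive genes were lower in shFHL2, by 0.81 for PSMB6, 0.25 for PSMB5 and 0.13 for PSMB7. The adjusted p-values ran from 6.95e-13 for PSMB6 to 0.00653 for PSMB7 (limma), and the call of PSMB7 was lost with quantile normalization (adjusted p = 0.0501). PSME1 was also higher in shFHL2, by 0.43.

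Outside the catalytic genes, PSMD11 was higher in shFHL2 by 0.88, and the assembly chaperone PSMG3 measured 11.05, 10.88 and 10.89 in shFHL2, against 10.35, 10.19 and 10.29 in shNFYA, 1.59-fold higher. PSMD2, the other large scaffold of the 19S base, measured 10.78, 10.73 and 10.77 in shFHL2, against 11.46, 11.42 and 11.41 in shNFYA, 1.59-fold lower. PSMD9 was 1.59-fold lower in shFHL2, and arrays of these genes did not overlap. Of the 5 ATPases 3 were lower and of the 9 non-ATPase genes 6 were lower, the exception among called ones being PSMD11.

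**Figure D5:**
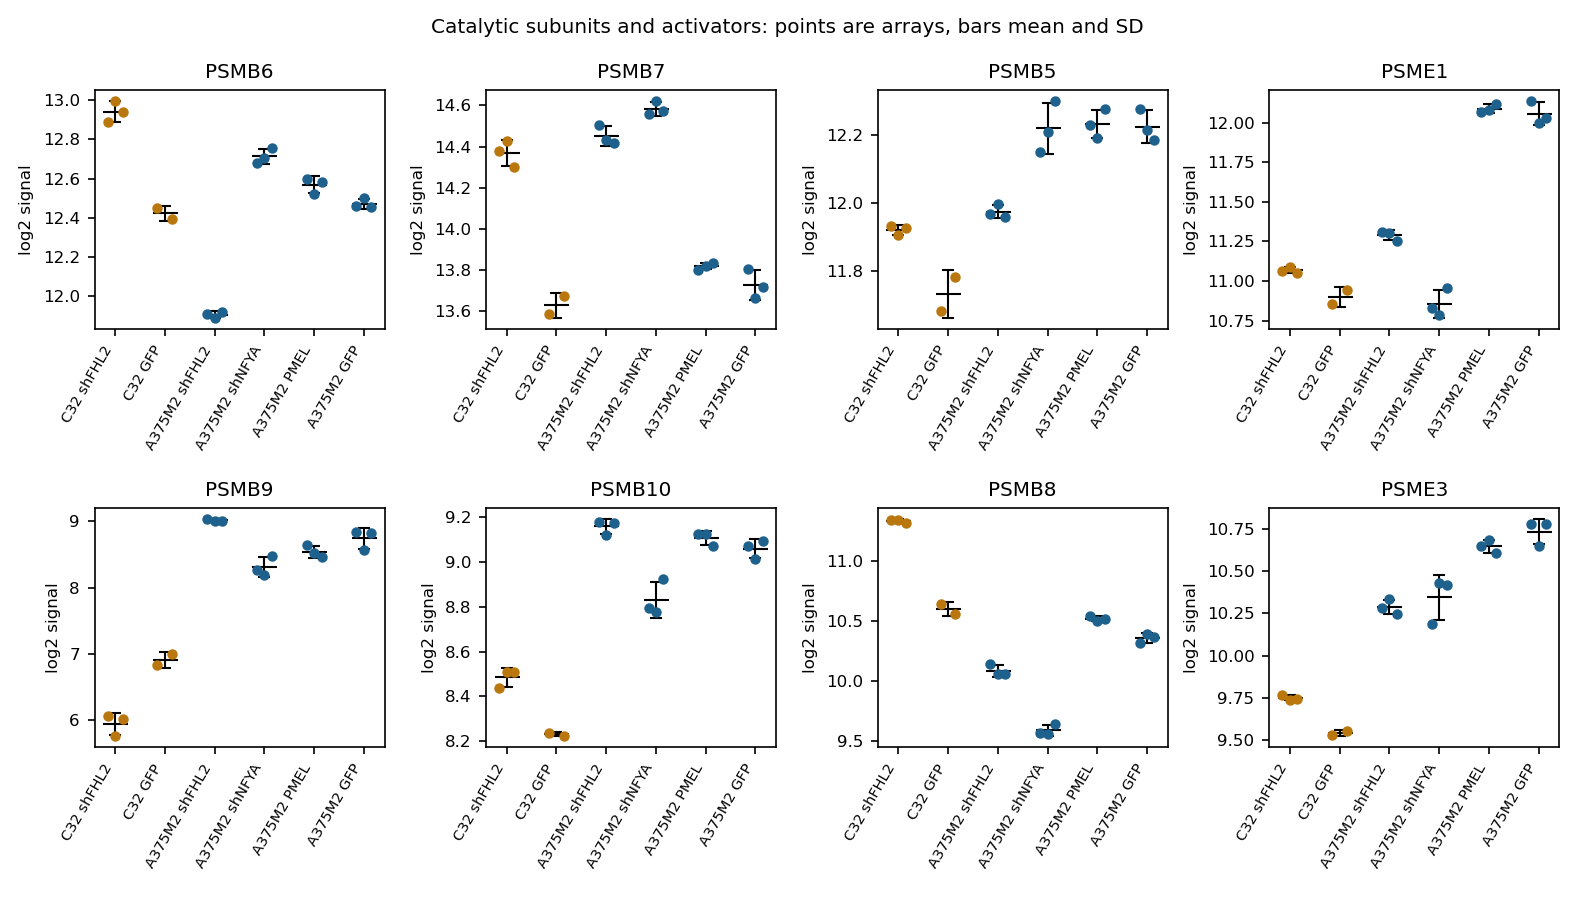
Log2 signal by group of the constitutive catalytic genes PSMB6, PSMB7 and PSMB5 with the activator PSME1 (upper row) and of their immunoproteasome counterparts PSMB9, PSMB10 and PSMB8 with PSME3 (lower row), where points are arrays and bars the mean and SD, with C32 in brown and A375M2 in blue. PSMB9 fell to 5.94 in C32 shFHL2, against 6.90 in C32 GFP, whereas PSMB8 was at 11.34 in C32 shFHL2, against 10.60 in C32 GFP.

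Differences of the proteasome genes between PMEL and GFP in A375M2 were small. Called higher were 12 (29.3%), against 22.1% of all genes, and called lower 6 (14.6%), against 17.8%, so that the share called was near that of all genes. Without the linked replicate 3 arrays 8 of the 41 were higher and 3 lower, where 29.7% of all genes were called in either direction. The median size of a difference was 0.09, against 0.14 over all genes. PSMD11 measured 7.90, 7.83 and 7.80 in A375M2 PMEL, against 7.29, 7.08 and 7.25 in A375M2 GFP, and its rise of 0.63 ± 0.12 stood apart, since no other reached beyond 0.27 in size. PSMG3 measured 11.25, 11.51 and 11.39 in A375M2 PMEL, against 11.09, 11.14 and 11.11 in A375M2 GFP, and PSMG2, its fellow chaperone of core assembly, measured 12.98, 12.95 and 12.998 in A375M2 PMEL, against 12.79, 12.76 and 12.74 in A375M2 GFP. These chaperones rose by 0.27 and 0.21, without overlap.

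The PMEL falls were led by ATPases. PSMC6 measured 12.90, 12.94 and 13.01 in A375M2 PMEL, against 13.18, 13.30 and 13.15 in A375M2 GFP, and PSMC3 measured 11.38, 11.38 and 11.37 in A375M2 PMEL, against 11.57, 11.51 and 11.56 in A375M2 GFP. They fell by 0.26 and 0.17, with no overlap between the arms. PSMD1, at 10.94, 10.87 and 10.78 in A375M2 PMEL, against 11.02, 10.96 and 11.12 in A375M2 GFP, differed by -0.17, and by -0.08 without the linked arrays (adjusted p = 0.418, limma). The calls of PSMB6 (0.10) and PSME4 (0.11) were also lost without them (adjusted p = 0.195 and 0.0735). PSMB8, at 10.54, 10.51 and 10.52 in A375M2 PMEL, against 10.32, 10.40 and 10.37 in A375M2 GFP, rose by 0.16, and PSMB9, PSMB10, PSMB5, PSMB7, PSME1 and PSME3 did not pass.

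Between the control arms, C32 GFP had lower proteasome signals than A375M2 GFP. Called lower were 30 of 41 genes (73.2%), against 47.2% of all genes, and called higher 9 (22%), against 38.7%. The poly-A spike-ins averaged 9.06 ± 0.30 in C32 GFP (SD, n = 2) and 6.93 ± 0.01 in A375M2 GFP (SD, n = 3). The hybridisation spike-ins averaged 12.44 ± 0.12 in C32 GFP and 11.67 ± 0.07 in A375M2 GFP. For the 3′ minus 5′ signal of actin the averages were 1.08 ± 0.02 in C32 GFP and 0.61 ± 0.13 in A375M2 GFP. The part of these control probes was not tested, and array set and line cannot be told apart here. Without replicate 3 of A375M2 GFP and PMEL 38 proteasome genes in all were called, against 39 with them, where 84.3% of all genes were called. The median difference was -0.33, against -0.10 over all genes. C32 GFP had the lowest mean of the 6 groups in 22 of the 41 genes and the highest in 0, whereas A375M2 shNFYA had the highest in 14 and C32 shFHL2 in 10.

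PSMD4, the ubiquitin receptor of the 19S cap, measured 11.39 and 11.42 in C32 GFP, against 13.90, 13.86 and 13.92 in A375M2 GFP, 5.61-fold lower, and its 2 other probe sets gave -2.26 and -2.34. PSMC4, an ATPase, measured 10.18 and 10.23 in C32 GFP, against 12.58, 12.66 and 12.58 in A375M2 GFP, 5.28-fold lower. PSMB9 measured 6.82 and 6.99 in C32 GFP, against 8.84, 8.56 and 8.83 in A375M2 GFP, 3.58-fold lower. These 3 genes stood apart from the other proteasome genes, which lay between -1.19 and 1.01.

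The largest differences in the other direction were those of PSMG1, PSMC2 and PSMD11. PSMG1 measured 12.07 and 12.09 in C32 GFP, against 11.11, 11.01 and 11.07 in A375M2 GFP, and PSMC2 measured 14.23 and 14.14 in C32 GFP, against 13.19, 13.19 and 13.23 in A375M2 GFP. They were higher by 1.01 and 0.98, with PSMD11 higher by 0.61. Of the inducible genes, PSMB10 was 1.78-fold lower, PSME1 2.23-fold lower and PSMB8 1.18-fold higher in C32 GFP. PSMB5 was lower by 0.49, PSMB6 (-0.05) did not pass, and PSMB7 (-0.10) was called at an adjusted p of 0.0438 (limma) but not with each array centred on its median, without the linked arrays or without C32 GFP replicate 1 (adjusted p = 0.559, 0.0675 and 0.347).

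Over the 6 group means the members varied by unequal amounts. The distance between the highest and lowest group mean was 0.36 in PSMC1 and 3.73 in PSMD11, with a median of 1.03, and it was under 1 in 20 of the 41 genes. PSMB9 was second, with 3.08 between A375M2 shFHL2 and C32 shFHL2. The median SD between arrays of a group was 0.03 to 0.05 over the members.

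Since NFYA binds CCAAT boxes and interferon acts on the inducible subunits, the members' promoters were read for 4 motifs. Windows of 250 bases before to 50 after the listed RefSeq starts (GRCh38.p14) were found for 35 of the 41 genes, with 42 windows, and a gene was counted when any of its windows held the letters on either strand. CCAAT was in 17 of 35 genes (48.6%), against 44.1% of the genes tested that had a window. TGACNNNGC, the antioxidant response element read by NRF1 and NRF2, was in 13 (37.1%), against 19.9%. TTCNNNGAA, the interferon-gamma activated site, was in 7 (20%), against 8.82%, and GAAA followed by any 2 bases and GAAA, the interferon-stimulated response element, was in 6 (17.1%), against 4.03%. Those 6 were PSMA4, PSMB4, PSMB8, PSMB10, PSME1 and PSMG4. A match is a string of letters and not a bound site.

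The windows of the inducible genes are shown because their transcripts differed in direction between comparisons, with matches to any of the 4 motifs in capitals. PSMB8 and PSME1 hold the interferon-stimulated element on the reverse strand at the start, PSMB10 on the forward strand, and the PSMB8 window also holds the interferon-gamma site. PSMB9 holds neither in this window, but a reverse antioxidant element and 1 CCAAT.
PSMB8 (chr6:32843998-32844297, reverse strand): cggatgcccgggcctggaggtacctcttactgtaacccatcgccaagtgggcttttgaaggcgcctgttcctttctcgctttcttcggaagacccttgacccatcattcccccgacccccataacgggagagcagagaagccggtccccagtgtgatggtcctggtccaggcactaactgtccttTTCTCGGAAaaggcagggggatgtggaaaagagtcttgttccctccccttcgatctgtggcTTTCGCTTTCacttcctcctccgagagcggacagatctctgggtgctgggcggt
PSMB9 (chr6:32853942-32854241, forward strand): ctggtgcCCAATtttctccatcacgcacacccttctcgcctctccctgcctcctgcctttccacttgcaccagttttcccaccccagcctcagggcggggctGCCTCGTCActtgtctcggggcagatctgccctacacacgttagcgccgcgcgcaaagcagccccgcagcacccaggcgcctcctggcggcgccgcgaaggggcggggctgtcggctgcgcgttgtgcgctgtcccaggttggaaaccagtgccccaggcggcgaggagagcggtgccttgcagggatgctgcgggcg
PSMB10 (chr16:67936801-67937100, reverse strand): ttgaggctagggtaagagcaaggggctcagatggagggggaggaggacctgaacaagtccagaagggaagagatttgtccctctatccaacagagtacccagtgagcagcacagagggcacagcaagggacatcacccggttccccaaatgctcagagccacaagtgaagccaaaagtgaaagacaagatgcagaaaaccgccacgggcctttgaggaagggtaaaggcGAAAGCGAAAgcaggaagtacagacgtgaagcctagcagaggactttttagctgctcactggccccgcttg
PSME1 (chr14:24135944-24136243, forward strand): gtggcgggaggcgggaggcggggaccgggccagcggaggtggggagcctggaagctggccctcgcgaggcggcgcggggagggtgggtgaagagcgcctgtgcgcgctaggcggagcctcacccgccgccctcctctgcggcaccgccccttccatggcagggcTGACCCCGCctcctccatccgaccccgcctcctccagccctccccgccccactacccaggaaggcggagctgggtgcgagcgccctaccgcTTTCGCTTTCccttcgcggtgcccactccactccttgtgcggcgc

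The next windows are those of the 4 genes that hold 2 CCAAT boxes, with that of PSMD9, the gene with the largest rise in the shNFYA arm, which holds 2 antioxidant elements and no CCAAT. In PSMD14, the deubiquitinase of the 19S lid, the CCAAT matches of the forward and reverse strand overlap.
PSMA3 (chr14:58244593-58244892, forward strand): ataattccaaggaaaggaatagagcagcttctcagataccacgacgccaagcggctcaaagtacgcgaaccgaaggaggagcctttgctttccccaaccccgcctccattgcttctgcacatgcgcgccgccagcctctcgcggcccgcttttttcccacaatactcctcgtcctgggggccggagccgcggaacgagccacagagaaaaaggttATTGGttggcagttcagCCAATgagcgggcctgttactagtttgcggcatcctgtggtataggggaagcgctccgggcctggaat
PSMA5 (chr1:109426399-109426698, reverse strand): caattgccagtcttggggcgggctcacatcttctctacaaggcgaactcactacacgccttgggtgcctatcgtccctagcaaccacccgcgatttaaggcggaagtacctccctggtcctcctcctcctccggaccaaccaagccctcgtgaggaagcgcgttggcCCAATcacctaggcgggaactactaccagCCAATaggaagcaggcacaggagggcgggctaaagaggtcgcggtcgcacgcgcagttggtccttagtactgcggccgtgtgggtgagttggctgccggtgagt
PSMB3 (chr17:38752491-38752790, forward strand): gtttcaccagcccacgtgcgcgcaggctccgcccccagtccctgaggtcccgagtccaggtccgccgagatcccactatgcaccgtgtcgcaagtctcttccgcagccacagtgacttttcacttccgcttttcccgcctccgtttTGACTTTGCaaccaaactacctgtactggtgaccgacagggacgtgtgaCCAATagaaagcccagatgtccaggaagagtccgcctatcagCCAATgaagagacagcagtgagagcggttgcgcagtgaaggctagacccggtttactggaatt
PSMD14 (chr2:161308175-161308474, forward strand): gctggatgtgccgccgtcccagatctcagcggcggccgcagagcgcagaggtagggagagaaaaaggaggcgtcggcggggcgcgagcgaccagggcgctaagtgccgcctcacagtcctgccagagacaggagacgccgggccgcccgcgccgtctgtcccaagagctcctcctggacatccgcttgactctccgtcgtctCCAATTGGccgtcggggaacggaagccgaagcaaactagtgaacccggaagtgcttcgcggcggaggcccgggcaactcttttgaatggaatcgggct
PSMD9 (chr12:121888540-121888839, forward strand): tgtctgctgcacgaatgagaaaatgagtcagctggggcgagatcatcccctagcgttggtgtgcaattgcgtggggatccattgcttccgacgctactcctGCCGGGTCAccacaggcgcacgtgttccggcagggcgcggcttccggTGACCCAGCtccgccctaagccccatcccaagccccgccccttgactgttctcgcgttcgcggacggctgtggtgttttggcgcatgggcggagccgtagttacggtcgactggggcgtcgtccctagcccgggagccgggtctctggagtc

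Genes with and without CCAAT were both higher and lower in A375M2 shNFYA against GFP. Of the 17 genes with a CCAAT, 10 were called higher and 5 lower in this comparison, with a median of 0.15. Of the 18 without one, 6 were higher and 9 lower, with a median of -0.10. Of all genes tested, 43.5% were called higher and 43.3% lower, and whether CCAAT goes with the direction was not tested. Over all genes with a window the medians were 0.00 with and 0.03 without CCAAT. Of the genes printed, PSMA3 differed by 0.16, PSMA5 by -0.04, which did not pass, PSMB3 by -0.09, PSMD14 by 0.35 and PSMD9 by 1.29. PSMD11, with the largest fall, held none of the 4 motifs in its window. NFYB and NFYC, the partners of NFYA, averaged 9.86 and 9.67 in shNFYA, against 9.24 and 8.64 in GFP.

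Genes that work with the proteasome were read from lists chosen for this purpose. Of 13 partners, 6 were higher and 2 lower in C32 shFHL2 against GFP (median 0.11), against 32.2% and 30.3% of all genes. They included the core maturation factor POMP (0.64), the cap deubiquitinase UCHL5 (0.76), TXNL1 (0.39) and the small cap subunit SEM1 (0.46), with AKIRIN2, which carries proteasomes into the nucleus, lower (-0.60). In A375M2, 8 were higher and 3 lower in shFHL2 against GFP, and 8 higher and 2 lower in shNFYA against GFP. Of all genes, 41.1% were higher and 44.3% lower with shFHL2, and 43.5% and 43.3% with shNFYA. PAAF1, a chaperone of the 19S base, differed by -1.27 in shFHL2 and -1.56 in shNFYA.

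In the NRF1 and NRF2 route most genes were lower in C32. Of its 11 genes measured, of 13 listed, 2 were higher and 8 lower in C32 shFHL2 against GFP (median -0.34), against 32.2% and 30.3% of all genes. NFE2L1 differed by -0.80 ± 0.05, NFE2L2 by -0.37, the small MAF partner MAFF by -0.73 and the target TXNRD1 by -0.69, all called. In A375M2 shNFYA against GFP 8 were higher and 1 lower, against 43.5% and 43.3% of all genes, with GCLM at 1.56 and HMOX1 at 1.69. In shFHL2 against shNFYA 1 was higher and 8 lower, against 31.8% and 38.3% of all genes. In A375M2 shFHL2 against GFP 4 were higher and 4 lower, near or below the 41.1% and 44.3% of all genes.

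The class I peptide route receives proteasome products. Of 17 genes measured, of 21 listed, 1 was higher and 12 lower in C32 shFHL2 against GFP, against 32.2% and 30.3% of all genes, with a median of -0.52 against 0.00 over all genes. The loading chaperones CALR (-1.33), PDIA3 (-0.96) and CANX (-0.63), the heavy chain HLA-B (-0.81) and the inducer of immunoproteasome genes IRF1 (-0.96) were among those lower. Of the interferon-inducible proteasome genes, PSMB9 was lower in this comparison, while PSMB8 (0.73), PSMB10 (0.25) and PSME1 were called higher. In A375M2 shFHL2 against GFP 5 were higher and 9 lower, against 41.1% and 44.3% of all genes, with IRF1 higher (2.18) and HLA-B lower (-0.76). In shNFYA against GFP 8 were higher and 5 lower, against 43.5% and 43.3% of all genes, with IRF1 called higher (1.53) while PSMB8, PSMB9 and PSMB10 were lower. Without replicate 3 of A375M2 GFP and PMEL, 14 and 13 of the 17 were called in these A375M2 comparisons, against 83.2% and 84.7% of all genes.

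Some members' values depend on the probe set. Of the 12 proteasome genes with several usable probe sets, the signs of a called gene disagreed between them in 2 for C32 shFHL2 against GFP (PSME3 and PSME4). They disagreed in 4 for A375M2 shFHL2 against GFP (PSMB2, PSMD12, PSME4 and PSMF1) and in 4 for shNFYA against GFP (PSMB2, PSMC2, PSMD12 and PSMF1). For shFHL2 against shNFYA there were 2 (PSMB2 and PSMF1), and for PMEL against GFP 1 (PSMC2). Between the GFP arms of the lines there were 6 (PSMA5, PSMB2, PSMB4, PSME3, PSME4 and PSMF1). There PSMA5 gave -1.03 on the probe set used and 2.67 on the other. PSMD12 gave 0.55 on the probe set used and -0.64 on the other in A375M2 shFHL2 against GFP. The probe sets of PSMA1, PSMA7 and PSME3 are of a kind that can also bind related transcripts.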

How the data were processed

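Total RNA of C32 and A375M2 cells was measured on 18 Affymetrix 3′ arrays. The deposited values are log2 signals made by the authors with GCRMA, which corrects background by probe sequence, normalizes between arrays and summarises probes, per the submitters' processing notes, with no version named. Such processing scales arrays to each other, so a shift of all genes together cannot be seen. Of 23416 probe sets, 20264 had 1 gene symbol, 995 several and 2099 none, and 58 were controls. The probe set with the highest mean over all arrays stood for a gene, and 10940 genes reached log2 4 in at least 3 arrays. All groups were fitted together with limma 3.58.1 in R 4.3.3 (lmFit, eBayes with trend, 17 arrays, 11 residual degrees of freedom), with Benjamini-Hochberg adjustment within each comparison over all genes and calls at 0.05. The number of arrays limits the precision. The fit was tested on simulated data with independent noise in every array. These lacked the linked arrays and the array sets, so they cannot show how those affect the calls. Python 3.11.15 and matplotlib 3.10.9 made the figures.

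Members, classes and gene lists were chosen with earlier results of these data known, so counts over them are descriptions. Values in every array are given for the catalytic and activator genes and for the up to 3 largest called rises and falls of each comparison, other genes being named after their values were seen. From each list the up to 4 genes with the smallest adjusted p were to be named, and further ones (TAP1, TAP2, PAAF1, IRF1, AKIRIN2) were chosen after their values were seen. Of 40 pairs of arrays with the same replicate number in different groups, 0 had deviations that correlated above 0.1 (-0.998 to 0.0986), so numbers were not taken to pair samples. Alternatives changed the filter, centring, probe set, variance model, arrays used and threshold.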

Additional observations from a re-analysis of the deposited data

Results flagged for a closer look

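The difference between shFHL2 and GFP was unlike between the lines in 6 named proteasome genes, by the interaction term of limma (C32 minus A375M2). PSMD11 gave 2.24 (0.44 in C32 and -1.80 in A375M2, adjusted p = 2.81e-09). PSMA2 gave 1.59 (0.65 in C32 and -0.94 in A375M2, adjusted p = 4.62e-12), and PSMD1 gave 1.09 (0.32 in C32 and -0.78 in A375M2, adjusted p = 3.55e-09). PSMB9 gave -1.24 (-0.97 in C32 and 0.27 in A375M2, adjusted p = 5.77e-07), PSMD9 -0.50 (0.13 in C32 and 0.63 in A375M2, adjusted p = 6.14e-07) and PSMG1 -0.39 (0.10 in C32 and 0.49 in A375M2, adjusted p = 6.13e-05). The A375M2 difference crosses array sets and the C32 difference does not, so line and set cannot be told apart in the interaction.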

How the results depend on the processing

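Counts of called proteasome genes moved by over 1.5 times under few settings. A 2-fold minimum left 0 in C32 shFHL2 against GFP, 1 in A375M2 shFHL2 against GFP, 3 in shNFYA against GFP, 0 in shFHL2 against shNFYA, 0 in PMEL against GFP, 8 between the GFP arms and 8 in the interaction. The 18 calls of PMEL against GFP became 11 at an adjusted p under 0.01 and 11 without both replicate 3 arrays or either of them. Leaving out 1 array gave 35 to 39 calls in C32 shFHL2 against GFP, 34 to 37 in A375M2 shFHL2, 35 to 37 in shNFYA, 30 to 33 in shFHL2 against shNFYA, 11 to 19 in PMEL, 37 to 39 between GFP arms and 34 to 37 in the interaction, where an arm of 1 C32 GFP array is assumed to vary like the others. With the replicate block the counts were 38, 37, 36, 33, 17, 39 and 35 in the same order of comparisons, where the numbers were not taken to pair samples. Centring each array on its median moved the median of all genes to 0.06 in A375M2 shFHL2 against GFP and 0.11 in shNFYA against GFP, and the proteasome medians with it to 0.10 and 0.12. Directions reversed for PSME4 in C32 shFHL2 against GFP with the probe set of largest variance (1.11) or the mean of probe sets (0.29), for PSME3 there with the mean of probe sets (-0.00597), and between GFP arms for PSME3 (0.0935) and PSME4 (0.0844) with the probe set of largest variance. These alternatives read other probes of the gene. Signal near log2 4 limits PSMD11 in shNFYA and PSMB8-AS1.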

Other observations

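Among the 4 genes that match by name only, PSMC3IP, a partner of the meiotic recombinases, had large differences. It measured 10.09, 10.04 and 10.09 in A375M2 shFHL2 and 9.18, 9.22 and 8.98 in shNFYA, against 8.32, 8.13 and 8.17 in A375M2 GFP, and 9.79, 9.74 and 9.75 in C32 shFHL2, against 8.86 and 8.94 in C32 GFP. It was called higher in these 3 comparisons, by 1.86, 0.92 and 0.86, and no arrays overlapped. PSMB8-AS1, at 5.28, 5.07 and 5.34 in A375M2 shFHL2, against 3.77, 3.86 and 3.94 in A375M2 GFP, lay below the filter level of log2 4 in all GFP arrays and passed that filter mainly through the shFHL2 arm, so no size of change is given.

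Of 16 listed genes of ubiquitin supply and delivery, 10 were measured. In C32 shFHL2 against GFP 4 were called higher and 6 lower, against 32.2% and 30.3% of all genes, with the shuttle factor RAD23B at 0.73, UFD1 at 0.64, the activating enzyme UBA6 at 0.44 and the shuttle factor UBQLN2 at -0.49. In A375M2 shFHL2 against GFP 2 were higher and 6 lower, against 41.1% and 44.3% of all genes, with the chaperone BAG6 at -1.52, the ligase STUB1 at -0.60, UBA6 at 1.09 and RAD23B at 0.74. In shNFYA against GFP 4 were higher and 4 lower, close to the 43.5% and 43.3% of all genes.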
